A study of Mus musculus with 18 samples.

Results

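Caveolae are flask-shaped pits of the plasma membrane, and the 7 genes described here encode parts of them: the caveolins Cav1 and Cav2, the cavins Cavin1, Cavin2 and Cavin3, and the neck and curvature proteins Ehd2 and Pacsin2. They were taken by name from a table of 51499 assembled loci, and each of the 7 matched 1 locus. The set was chosen by its gene names after measured FPKM values of these samples had been seen, so all 6 group levels are given as a description, with no test. The samples were mouse embryonic fibroblasts (MEFs), connective tissue cells kept in culture as lines that the study had not authenticated, although it tested the Ago2-/- line for loss of AGO2 by western blot. Cells labelled Ago2+/+ or Ago2-/-, the latter lacking the Argonaute protein that cuts target RNAs, received the solvent DMSO, tunicamycin, an inhibitor of protein N-glycosylation, or 500 nM thapsigargin, an inhibitor of the calcium pump of the endoplasmic reticulum (ER). RNA of 18 libraries, 3 in each of the 6 groups, was sequenced to ask which mRNAs depend on AGO2 under ER stress.

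In fibroblasts, caveolae buffer membrane tension and hold signalling receptors. Caveolin-1 inserts into the inner leaflet as a wedge and forms the coat, with caveolin-2 as its partner. Cavin-1 binds the caveolin coat from the cytosol and is needed for caveolae to form, and cavin-2 and cavin-3 join it in the same complexes. EHD2 is an ATPase that forms a ring at the neck, and PACSIN2 is an F-BAR protein that bends membrane.

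The authors' value for each group was 1 FPKM (fragments scaled by transcript length and by the number of mapped fragments) pooled over its libraries, so no replicate spread can be given, the depth is unknown, and no test was run here. The authors' own test results in the table were set aside. The table calls the Ago2+/+ groups DCR1, for a reason not given in the sources used here. For 4 libraries the labels disagree on the genotype, and pooling leaves no way to remove them. Ago2 itself did not follow the labels throughout, at 5.61 to 20.7 FPKM in the 3 groups labelled Ago2-/- and 5.75 to 22.1 FPKM in the 3 labelled Ago2+/+. With DMSO it was lower in Ago2-/- (5.61 against 22.1 FPKM). It was higher there with tunicamycin (15.5 against 5.75) and with thapsigargin (20.7 against 17.0). The 6 groups fell into 3 close pairs that cross both labels, with a Spearman correlation over 10293 loci of 0.983 to 0.991 within these pairs and 0.898 to 0.927 for the other 12 pairs of groups. Pair A is Ago2+/+ tunicamycin with Ago2-/- DMSO, pair B is Ago2+/+ thapsigargin with Ago2-/- tunicamycin, and pair C is Ago2+/+ DMSO with Ago2-/- thapsigargin. By pair, Ago2 was at 5.75 and 5.61 FPKM in pair A and between 15.5 and 22.1 FPKM elsewhere. In pair B the Y-linked Ddx3y, Uty, Kdm5d and Eif2s3y lay between 6.03 and 32.3 FPKM, against 0 in every other group, and the locus holding Xist was at 46.6 and 33.5 FPKM in pair C and at most 0.0574 elsewhere. Groups are therefore called by their labels only, and treatment, genotype and the origin of the cells cannot be told apart in any value below. Of 9 fibroblast markers, 8 reached 1 FPKM and Thy1 was listed at 0 throughout, while none of 5 endothelial, 4 skeletal muscle or 4 epithelial markers reached 1 FPKM.

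Cavin2 was the gene of the set with a large contrast between groups, and its promoter is shown beside those of 2 other caveolar genes: Cav1, which was high in all groups, and Cavin4, the muscle cavin, whose order across groups differed from that of Cavin2. Each sequence is the 250 bases before the RefSeq start of the gene on its own strand, from GRCm38.p6, at chr1:51288876-51289125 on the plus strand for Cavin2, chr6:17306085-17306334 on the plus strand for Cav1 (the first of 2 starts) and chr4:48663264-48663513 on the plus strand for Cavin4. Capitals mark matches, on either strand, to GGAATG (the core bound by TEAD factors), GGGCGG (SP and KLF factors) or TATAAA (the TATA box), and the CArG box of SRF was searched as well.
Cavin2: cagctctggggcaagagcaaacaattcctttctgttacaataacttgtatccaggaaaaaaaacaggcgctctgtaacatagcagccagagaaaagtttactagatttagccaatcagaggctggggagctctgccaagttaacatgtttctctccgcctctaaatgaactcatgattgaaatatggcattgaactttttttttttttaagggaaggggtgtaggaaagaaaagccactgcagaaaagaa
Cav1: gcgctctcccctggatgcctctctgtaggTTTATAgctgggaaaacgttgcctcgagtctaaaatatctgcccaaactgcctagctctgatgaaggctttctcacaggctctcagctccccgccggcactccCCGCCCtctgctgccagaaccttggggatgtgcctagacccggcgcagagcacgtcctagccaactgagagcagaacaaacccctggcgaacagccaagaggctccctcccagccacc
Cavin4: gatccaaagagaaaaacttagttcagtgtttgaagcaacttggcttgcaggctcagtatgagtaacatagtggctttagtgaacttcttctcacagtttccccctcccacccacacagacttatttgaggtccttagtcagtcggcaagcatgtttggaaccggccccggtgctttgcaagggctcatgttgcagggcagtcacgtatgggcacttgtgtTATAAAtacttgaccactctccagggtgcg
The Cavin2 window held none of the 4 motifs. The Cav1 window held GGGCGG 118 bases and TATAAA 221 bases before the start, both on the opposite strand and so printed as their reverse complement. The Cavin4 window held TATAAA 30 bases before the start. Of 32851 RefSeq promoters, 1.47% held the CArG box, 12.6% GGAATG, 32.7% GGGCGG and 12.4% TATAAA in the same 250 bases. The windows also differed in base composition, with a GC content of 40.4% for Cavin2, 48.8% for Cavin4 and 59.6% for Cav1, against a median of 52.4% over all promoters. Of the windows not shown, those of Cav2 and Ehd2 and that of the first Pacsin2 start held GGGCGG, and those of the second Cav1 start and of the other Pacsin2 starts held none of the 4 motifs. The Cavin1 window held GGGCGG and GGAATG, but all 250 of its bases lie in the first exon that GENCODE annotates for Cavin1, as do 32 bases of the Ehd2 window for Ehd2. Of the 7 genes, 6 matched the RefSeq promoter table, all but Cavin3. A match is a string of letters and not a measured binding site.

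Cavin2 (chromosome 1, 51289126 to 51302960, plus strand, GRCm38, 2 exons in its 1 annotated transcript) was abundant in 4 groups and near 1 FPKM in the other 2. In the authors' table it was at 103 FPKM (Ago2+/+) and 1.03 FPKM (Ago2-/-) with DMSO, 1.63 and 78.9 with tunicamycin, and 104 and 85.8 with thapsigargin. The 2 low groups are pair A, and the lowest of the other 4 groups stood 48.5-fold above the higher of the low 2. No group lay between 1.63 and 78.9 FPKM. Ago2 was also lowest in pair A. In each library pool, fewer cells that express a gene and less RNA of it per cell cannot be told apart. The antisense gene 9330175M20Rik and the pseudogene Gm5253, which lie in the same assembled locus, were at most 0.0399 and 0.0379 FPKM in any group. Some summed marker levels differed between pair A and the other groups. The 4 adipocyte markers, of which Fabp4 alone reached 1 FPKM, summed to 0.0344 and 0.0816 FPKM in pair A and 0.682 to 1.61 FPKM elsewhere, and the 4 epithelial markers to 0.882 and 1.33 FPKM in pair A and 0.182 to 0.380 FPKM elsewhere. The epithelial sum rests on Krt8 and Krt18, while Cdh1 and Epcam were highest in pair B (Cdh1 at 0.119 and 0.181 FPKM against at most 0.0599 elsewhere). The contrast in the adipocyte sum rests on Fabp4. Adipoq was at 0.0324 and 0.0179 FPKM in pair A, 0.0467 FPKM in Ago2+/+ DMSO and 0 elsewhere. Cidec was listed above 0 in Ago2-/- DMSO alone, at 0.0153 FPKM. Plin1 was at 0 in pair A and at 0 to 0.0544 FPKM elsewhere. The fibroblast markers did not move as one. Col1a1 was at 6.77 and 5.97 FPKM in pair A and 87.1 to 651 FPKM elsewhere, Col1a2 at 26.8 and 23.7 against 86.2 to 577, Col3a1 at 6.93 and 6.60 against 9.78 to 30.9 and Pdgfra at 0.488 and 0.903 against 2.62 to 8.72. Vim was highest in pair A, at 2634 and 2580 FPKM against 952 to 1439 elsewhere, and carried most of the summed level of the 9 markers there. Fn1, Pdgfrb and the locus holding S100a4 lay between pairs B and C in pair A. Fn1 was at 290 and 326 FPKM in pair A, 567 and 600 in pair B and 46.4 and 95.2 in pair C. The S100a4 locus was at 937 and 1004 FPKM in pair A, 285 and 330 in pair B and 1967 and 1926 in pair C. Pdgfrb was at 9.13 and 7.84 FPKM in pair A, 13.9 and 17.9 in pair B and 0.540 and 0.799 in pair C. The part of cells with such markers in the level of Cavin2 was not tested.

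**Figure D1:**
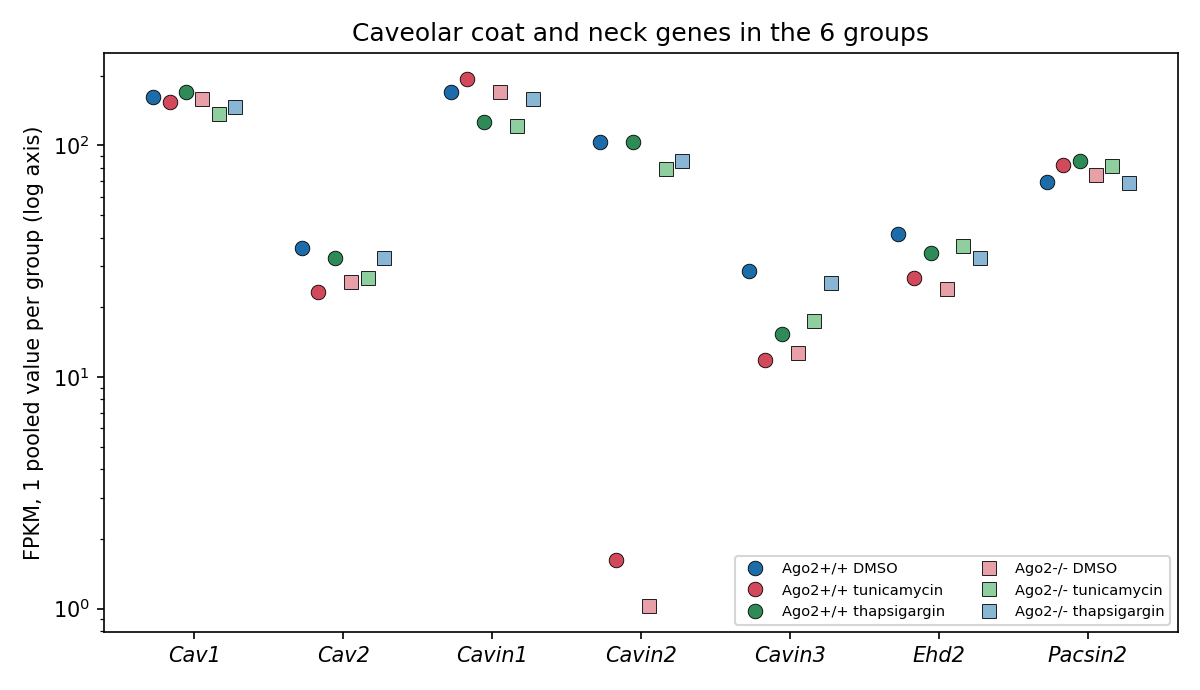
FPKM of the 7 genes (log axis) in each of the 6 groups, 1 pooled value per point with no error bar because none exists, circles for groups labelled Ago2+/+ and squares for groups labelled Ago2-/-, with the 2 groups of a close pair in the same hue. Cavin2 sat at 1.63 and 1.03 FPKM in the 2 groups drawn in red and pink, and between 78.9 and 104 FPKM in the other 4, while the other genes spanned less, from 11.9 to 28.7 FPKM for Cavin3 and under 2-fold for the remaining 5.

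The caveolins showed no such contrast. Cav1 (chromosome 6, 17306335 to 17341452, plus strand, 10 annotated transcripts) was at 161 FPKM (Ago2+/+) and 159 FPKM (Ago2-/-) with DMSO, 154 and 137 with tunicamycin, and 171 and 146 with thapsigargin. Its highest and lowest groups were the 2 of pair B, so it differed as much inside that pair as between any groups. Cav2 (chromosome 6, 17281185 to 17289115, plus strand, 3 annotated transcripts), which shares an assembled interval with Cav1 in the table, was at 36.0 FPKM (Ago2+/+) and 25.8 FPKM (Ago2-/-) with DMSO, 23.3 and 26.6 with tunicamycin, and 32.7 and 32.8 with thapsigargin. The low groups of Cav2 were pair A, with Ago2-/- tunicamycin close above them. FPKM is per length of transcript, so the 2 levels can be compared: Cav1 stood 4.45- to 6.59-fold above Cav2, with the 2 largest ratios, 6.59 and 6.15, in pair A.

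Like Cav1, Cavin1, the cavin on which the coat depends, had high levels in all groups. It lies on chromosome 11 (100956733 to 100970887, minus strand, 2 exons) and was at 170 FPKM (Ago2+/+) and 170 FPKM (Ago2-/-) with DMSO, 193 and 122 with tunicamycin, and 127 and 159 with thapsigargin. Its 2 lowest groups were pair B, and pair A, where Cavin2 was low, held its highest value and a level within 0.0031 on the log2 scale of the one in Ago2+/+ DMSO. Per Cav1 transcript, Cavin1 ranged from 0.743 in Ago2+/+ thapsigargin to 1.25 in Ago2+/+ tunicamycin.

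Cavin3, the third ubiquitous cavin, differed moderately between groups. This gene on chromosome 7 (105480083 to 105482300, minus strand, 2 exons) was at 28.7 FPKM (Ago2+/+) and 12.7 FPKM (Ago2-/-) with DMSO, 11.9 and 17.4 with tunicamycin, and 15.4 and 25.4 with thapsigargin. Its levels were lowest in pair A, intermediate in pair B and highest in pair C, without overlap between the pairs. It was the gene of the set whose 12 ratios between groups of different pairs (absolute log2 0.27 to 1.27) all exceeded its 3 ratios inside pairs (0.10 to 0.18). For Cavin2, 8 of those 12 exceeded its largest ratio inside a pair (0.61), and the 4 that did not were the ratios between pairs B and C. The share of all loci with pairs separated in this way was not computed. The groups of a pair were also close over all loci, so the separation is not shown to be particular to Cavin3.

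The neck and curvature genes stayed within a narrow range. Ehd2 (chromosome 7, 15946958 to 15967567, minus strand, 6 exons) was at 41.3 FPKM (Ago2+/+) and 24.0 FPKM (Ago2-/-) with DMSO, 26.8 and 36.9 with tunicamycin, and 34.2 and 32.5 with thapsigargin. Both groups of pair A were lowest for Ehd2, Cav2, Cavin2 and Cavin3, but not for Cav1, Cavin1 and Pacsin2. The share of all loci that were lowest in pair A was not computed. Pacsin2 (chromosome 15, 83375607 to 83464606, minus strand, 11 annotated transcripts) was at 69.3 FPKM (Ago2+/+) and 74.4 FPKM (Ago2-/-) with DMSO, 82.4 and 81.1 with tunicamycin, and 86.0 and 68.6 with thapsigargin. Pair C was lowest for Pacsin2, and a processed pseudogene inside the gene, Gm5417, was listed at 0.624 to 3.28 FPKM, so reads could have been split between them.

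The span of a gene, here the log2 ratio of its highest to its lowest group after adding 0.1 to each FPKM, places these profiles among the 13032 loci with at least 1 FPKM in some group, whose median span was 0.86 (quartiles 0.54 and 1.64). Cav1 spanned 0.31 and Pacsin2 0.33, less than 12170 and 12054 of those loci. Cav2 spanned 0.62, Cavin1 0.67 and Ehd2 0.78, all below that median. Cavin3 spanned 1.27, with 4274 loci above it. Cavin2 spanned 6.52, and 250 loci had a larger span. By highest level, the 7 genes stood between the 63.0th percentile (Cavin3) and the 95.3rd percentile (Cavin1) of the same loci. With no spread per group, neighbouring levels in the order of a gene cannot be called different, and some orders depend on how groups are scaled. After division by the median of 8 reference genes, 4 of the 7 genes kept their highest group and 4 their lowest, with another highest group for Cav1, Cavin1 and Cavin2 and another lowest group for Cav1, Cavin3 and Pacsin2. Cavin2 kept its lowest group, Ago2-/- DMSO, but its highest became Ago2+/+ DMSO, whose deposited level differed from that in Ago2+/+ thapsigargin by 0.0019 on the log2 scale.

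**Figure D2:**
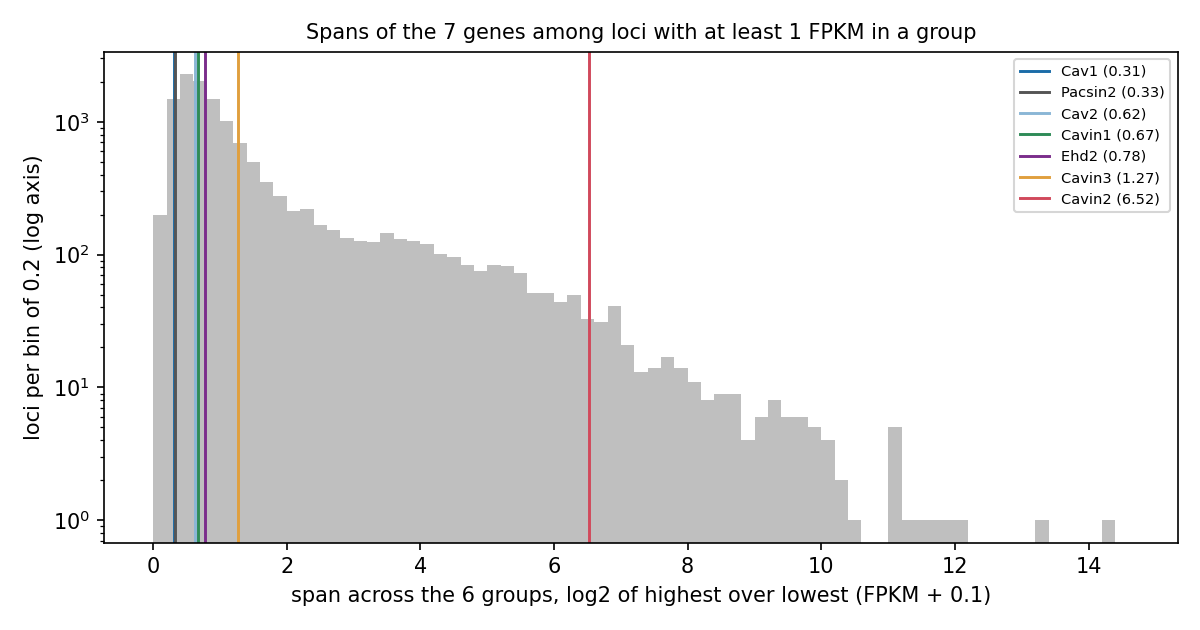
Number of loci (log axis) by span across the 6 groups, the log2 ratio of the highest to the lowest group after adding 0.1 FPKM, in bins of 0.2 for the 13032 loci with at least 1 FPKM in some group, with 1 coloured line per gene. The lines of 5 genes lie below a span of 1, Cavin3 at 1.27 and Cavin2 at 6.52 in the sparse right side of the distribution.

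The comparisons of the design set each stressor against DMSO within a labelled genotype. A gene is counted below when its ratio of (FPKM + 0.1) reached 2-fold, among loci with at least 1 FPKM in 1 or both groups, and all 7 genes passed that filter in every comparison. Each stressor comparison shares its DMSO group with the other of the same genotype. In Ago2+/+ tunicamycin over Ago2+/+ DMSO, none of the 7 genes was at least 2-fold higher, where 10.7% of 12257 loci were. At least 2-fold lower were 2 of the 7, where 9.31% of loci were. These were Cavin2, 63.6-fold lower (log2 ratio -5.91), and Cavin3, 2.42-fold lower (-1.27). The next in size were Cav2 at -0.62 and Ehd2 at -0.62, and the median of the 7 was -0.62 against 0.012 over all loci. In Ago2+/+ thapsigargin over Ago2+/+ DMSO no gene passed 2-fold, with backgrounds of 8.71% lower and 10.3% higher. Cavin2 was at 0.0019 there and Cavin3 at -0.89, and the median of the 7 was -0.14.

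In the cells labelled Ago2-/- the contrast of Cavin2 had the opposite direction, since the DMSO group itself was low. Under tunicamycin, 1 gene was at least 2-fold higher, where 13.2% of 12399 loci were, and 0 were lower, where 11.7% were. That gene was Cavin2, at 76.6-fold (log2 ratio 6.13), and the others lay between -0.49 for Cavin1 and 0.62 for Ehd2. Under thapsigargin, 1 gene was at least 2-fold higher, where 9.43% of 12274 loci were, and 0 were lower, where 10.9% were. Cavin2 again was that gene, at 83.3-fold (6.25), and Cavin3, at 0.99, lay just under 2-fold. The median of the 7 was 0.12 under tunicamycin and 0.34 under thapsigargin, against 0.0048 and -0.022 over all loci.

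Between the labelled genotypes, Ago2-/- DMSO over Ago2+/+ DMSO had 2 of 7 genes at least 2-fold lower, where 9.42% of 12246 loci were, and none higher, where 10.6% were. Cavin2 was 100.4-fold lower (log2 ratio -6.52) and Cavin3 2.25-fold lower (-1.16), while Cavin1 was at 0.0031 and the median of the 7 was -0.48 against 0.011 over all loci. Under tunicamycin the same contrast had Cavin2 higher by 48.5-fold (5.52), 1 gene where 13.1% of 12405 loci were higher, and 0 lower, where 11.2% were. Cavin1 lay at -0.67 in it. Under thapsigargin no gene passed 2-fold in either direction, with 8.64% of 12251 loci higher and 10.9% lower, and Cavin3 at 0.72 was the farthest from 0. Inside the close pairs no gene reached 2-fold, where 1.83% of loci in pair A, 2.19% in pair B and 4.11% in pair C did so in either direction. Within that smaller range, Cavin2 at 0.61 in pair A still lay above 95% of loci (0.32).

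**Figure D3:**
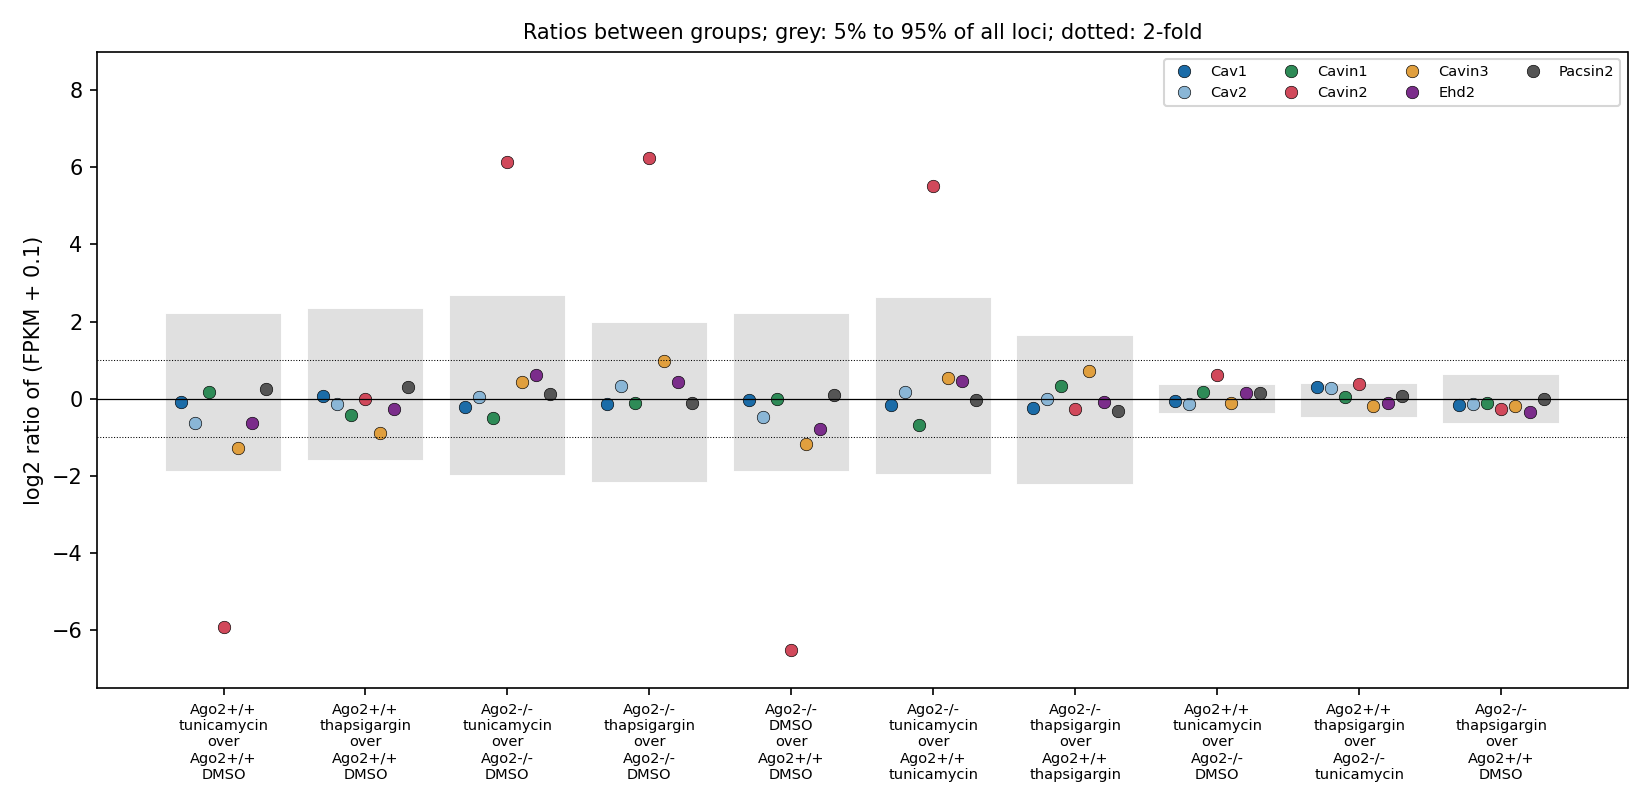
Log2 ratio of (FPKM + 0.1) of the 7 genes in the 4 stressor comparisons, the 3 genotype contrasts and the 3 close pairs, with grey boxes for the 5% to 95% range of all loci in that comparison and dotted lines at 2-fold. Cavin2 lay outside the grey box in 5 of the 7 designed comparisons, at -5.91, 6.13, 6.25, -6.52 and 5.52, and at 0.0019 and -0.27 in the 2 that compare groups outside pair A.

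Among the cavins, transcript shares followed Cavin2. Of the summed FPKM of Cavin1 to Cavin4, Cavin2 made up 34.2% (Ago2+/+) and 0.524% (Ago2-/-) with DMSO, 0.742% and 35.4% with tunicamycin, and 41.1% and 31.3% with thapsigargin. Cavin1 held 88.0% and 86.6% of the sum in pair A, and between 50.3% and 58.0% in the other groups. The summed cavin FPKM was 219 and 197 in pair A, and between 223 and 303 elsewhere. The summed caveolin FPKM varied less, from 164 in Ago2-/- tunicamycin to 203 in Ago2+/+ thapsigargin.

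Cavin4 is the cavin known from muscle, where it associates with caveolae of the sarcolemma and T-tubules. This gene on chromosome 4 (48663514 to 48673502, plus strand, 2 exons) was at 0.447 FPKM (Ago2+/+) and 12.6 FPKM (Ago2-/-) with DMSO, 12.7 and 5.11 with tunicamycin, and 6.49 and 3.65 with thapsigargin. The 2 highest groups of Cavin4 were pair A, the 2 lowest groups of Cavin2. The level of Cavin2 was 0.128 and 0.0817 times that of Cavin4 in pair A, and 15.4 to 232 times it elsewhere. Cavin4 differed past 2-fold inside a close pair, by 2.78 on the log2 scale in pair C, where none of the 7 genes did. Of 5 smooth muscle markers 4 reached 1 FPKM, with a summed level of 2418 and 1800 FPKM in pair B and at most 8.996 elsewhere. That sum rests on Acta2, Tagln and Cnn1, while Des was highest in pair C (2.95 and 2.58 FPKM) and Myh11 was at most 0.0730 FPKM in any group. The 4 skeletal muscle markers summed to at most 0.189 FPKM. The part of muscle cells in the level of Cavin4 was not tested.

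**Figure D4:**
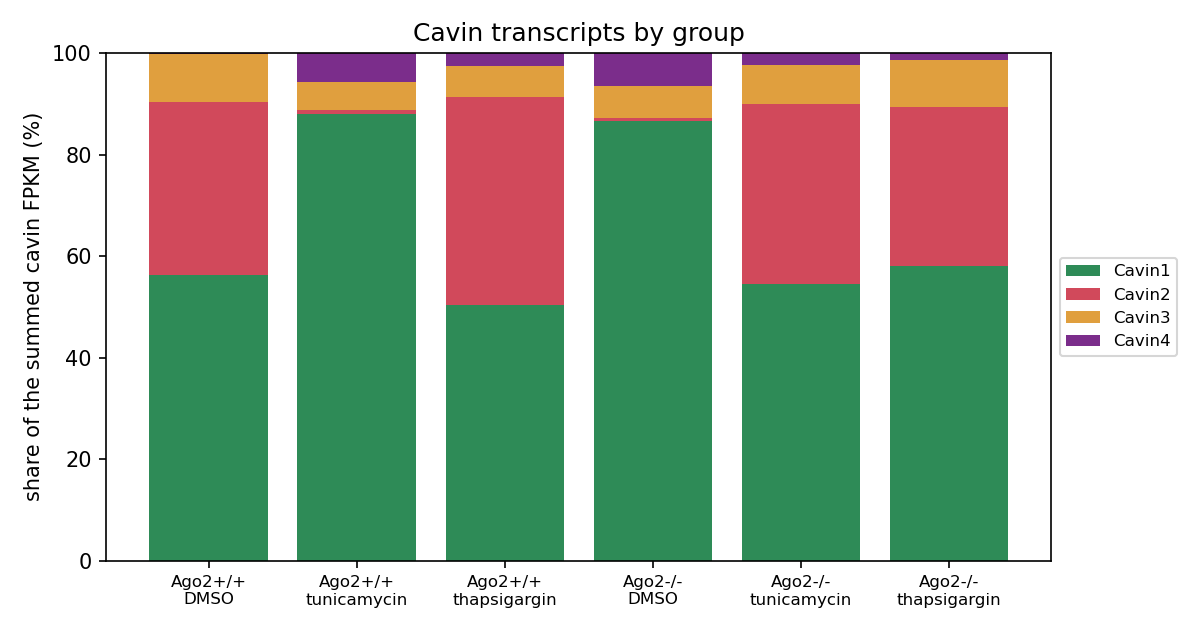
Share of each cavin in the summed FPKM of Cavin1 to Cavin4 (percent, bars stacked to 100) in the 6 groups, 1 pooled value each. Cavin2 fills 31.3% to 41.1% of 4 bars and under 1% of the bars of Ago2+/+ tunicamycin and Ago2-/- DMSO, where Cavin1 fills 88.0% and 86.6%.

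The other caveolar coat and neck genes on a list of 12 were in part below 1 FPKM. Here 7 of the 12 reached 1 FPKM, and Cav3, Ehd1, Pacsin1, Dnm3 and Ror1 did not, with Cav3, the muscle caveolin, at most 0.0395 FPKM. Ehd1 was listed at 0 in 5 groups and at 0.0488 in Ago2-/- DMSO, and without read counts a 0 in the table may be a failed estimate. Ehd3, an EHD ATPase of endosomes, was listed at 0 (Ago2+/+) and 0.00263 FPKM (Ago2-/-) in pair C, at 0.0449 and 0.0360 in pair A and at 3.17 and 3.69 in pair B, so that pair B alone of the 3 exceeded 1 FPKM. Ehd4, which can share the caveolar neck with EHD2, was at 55.7 FPKM (Ago2+/+) and 77.0 FPKM (Ago2-/-) with DMSO, 84.4 and 22.1 with tunicamycin, and 21.5 and 34.9 with thapsigargin. Its 2 highest groups were pair A, where Ehd2 was lowest. Of the 12 genes, Cavin4 and Flna were at least 2-fold higher and Dnm1 lower in Ago2+/+ tunicamycin over DMSO, and Cavin4, Ehd3 and Flna were higher and Ehd4 lower in Ago2+/+ thapsigargin over DMSO. In the cells labelled Ago2-/-, Ehd3, Pacsin3 and Dnm1 were higher and Cavin4 and Ehd4 lower under tunicamycin, and Dnm1 was higher and Cavin4 and Ehd4 lower under thapsigargin. Flna encodes filamin A, which links caveolin-1 to actin, and Dnm1 encodes a dynamin, a GTPase that cuts membrane necks. These counts, 3 to 5 of 6 or 7 genes that passed the filter, stand beside the backgrounds of 8.71% to 13.2% per direction given above. Ehd3, and Cavin4 in the 2 comparisons with Ago2+/+ DMSO, passed the filter only through the group in which they were high.

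The clathrin coat drives the best known route of endocytosis, and flotillins mark another. All 14 genes of a list of these coats were above 1 FPKM, all 14 spanned less than 1 on the log2 scale, and none passed 2-fold in any of the 7 comparisons. Of all 13032 loci, 57.4% spanned less than 1, and 8.64% to 13.2% passed 2-fold per direction and comparison. The 3 with the largest spans were Ap2m1, a subunit of the clathrin adaptor AP-2, at 111 to 223 FPKM, Cltc, the clathrin heavy chain, at 89.1 to 172 FPKM, and Eps15, an adaptor of clathrin pits, at 24.0 to 44.4 FPKM. Ap2m1 lay at the limit, with a span of 0.99965 and a ratio of 2.0004 without the added 0.1 FPKM. Cltc was highest in pair A (166 and 172 FPKM), and Ap2m1 and Eps15 were lowest in it.

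The factors SRF and TEAD, with the coactivators of the MRTF and YAP families, control many cytoskeletal and membrane genes of fibroblasts. Of 10 such genes 9 reached 1 FPKM, 4 of them with a span under 1 (57.4% of all loci had one), and Myocd, the muscle coactivator, did not reach it. Yap1 had the largest span of the list, at 35.9 FPKM (Ago2+/+) and 972 FPKM (Ago2-/-) with DMSO, 1035 and 43.3 with tunicamycin, and 42.4 and 34.7 with thapsigargin. Its 2 high groups were pair A. Tead4 was also highest there, at 30.9 and 35.8 FPKM against 6.81 to 15.8 elsewhere, and Tead3 was lowest there, at 8.29 and 5.88 FPKM against 10.8 to 24.9. Of the 9 genes, Yap1 and Tead4 were at least 2-fold higher in Ago2+/+ tunicamycin over DMSO, beside 10.7% of all loci, and none passed 2-fold in Ago2+/+ thapsigargin over DMSO, beside 10.3% higher and 8.71% lower. In the cells labelled Ago2-/-, both were lower under either stressor, Tead2 was higher under either, and Tead3 was higher under tunicamycin, beside 13.2% of loci higher and 11.7% lower under tunicamycin and 9.43% and 10.9% under thapsigargin.

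The loci whose profile over the 6 groups lay nearest to that of Cavin2 were Trim25, a ubiquitin ligase, Stk39, a kinase, and Cspg4, the proteoglycan NG2, by the root mean square difference of centred log2 (FPKM + 0.1) over 12658 loci. The differences were 0.263, 0.299 and 0.319, and 16 loci lay within 0.5. Trim25 was listed at 0 in both groups of pair A and lay between 6.07 and 7.66 FPKM in the other 4. Stk39 was at 0.0642 and 0.0508 FPKM in pair A and between 9.997 and 16.4 elsewhere, and Cspg4 at 0.0199 and 0.0307 against 5.81 to 9.73. All 3, picked for a profile like that of Cavin2, were thus listed at or near 0 in the 2 groups where Cavin2 was low. Values this low take their place on the log2 scale largely from the added 0.1 FPKM. The ranking was not repeated with another pseudocount. Without read counts, the 0 of Trim25 may be a failed estimate.

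**Figure D5:**
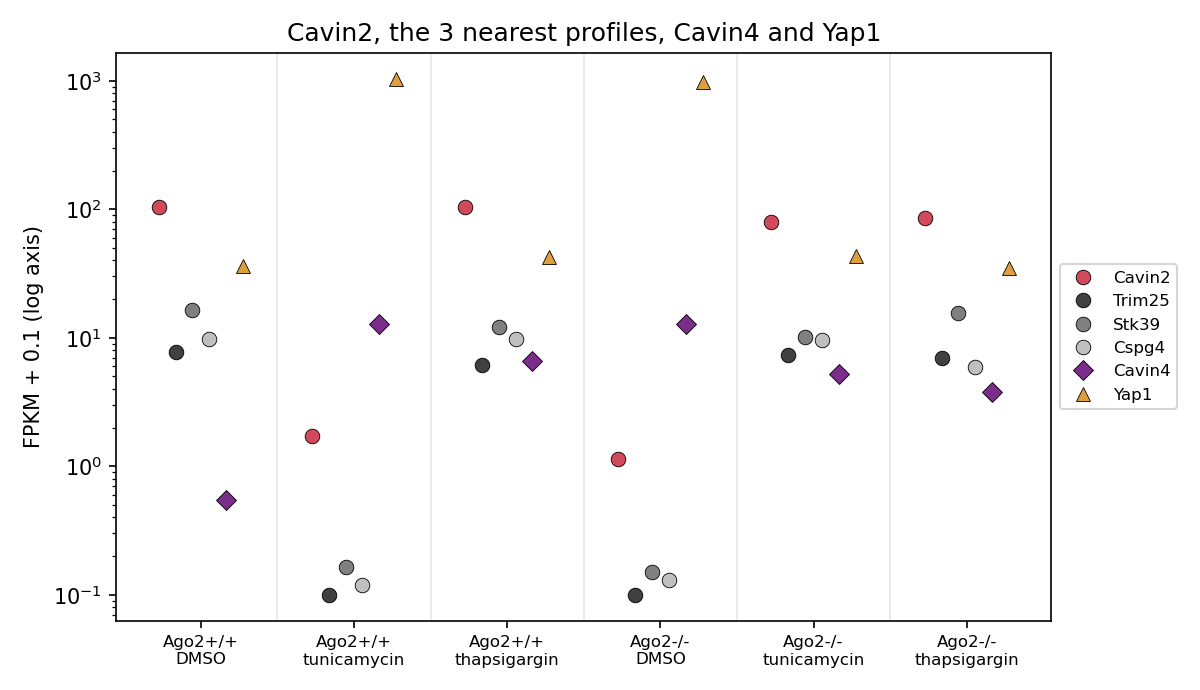
FPKM + 0.1 (log axis) of Cavin2, the 3 loci with the nearest profile (Trim25, Stk39 and Cspg4), Cavin4 and Yap1 in the 6 groups, 1 pooled value per point. The first 4 genes drop together in Ago2+/+ tunicamycin and Ago2-/- DMSO, the groups in which Yap1 stood at 1035 and 972 FPKM and Cavin4 at 12.7 and 12.6 FPKM.

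For the other 6 genes the nearest profiles are less particular, because many loci with small spans lie as near. Within 0.5 there were 4287 loci for Cavin3 and between 7699 and 8630 for Cav1, Cav2, Cavin1, Ehd2 and Pacsin2. The nearest were Ubtd1 to Cavin3 (0.0380), Pop7 to Cav1 (0.0304), Atp5l to Cav2 (0.0516), Pan3 to Cavin1 (0.0236), Zfyve27 to Ehd2 (0.0320) and Fchsd2 to Pacsin2 (0.0260).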

How the data were processed

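RNA of 18 libraries was sequenced, 3 in each of 6 groups, and grouped by library title. The authors mapped reads to Ensembl annotation, assembled transcripts under its guidance and quantified loci, and the submitters' processing notes name HISAT2 2.1.0, StringTie 1.3.4d, Cuffdiff 2.2.1 and the build GRCm38. The deposited values are FPKM, 1 per group and locus, pooled by the authors over libraries. Library scaling and strandedness were not given in the sources used here. This table repeats each group value over 15 pairs of groups and also holds the authors' fold changes, test statistics, p and q values, which were not used.

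With 1 pooled value per group there is no replicate error, so no test was run and differences are descriptions. Low values were searched for read steps: among 1743 to 2558 loci under 0.05 FPKM in each pair of groups, at most 3.24% shared 1 ratio within 1%, so depth is unknown and the precision of each value cannot be given. A pseudocount of 0.1 FPKM was added before log2 ratios. Loci with under 1 FPKM in both groups were left out of counts. The counting step was run on a simulated table without noise that carried known folds. That run checks the code only, and not low values or the spread between libraries. The 7 genes and all lists were chosen with earlier results of these data known. The naming rule took the 7 genes, the label checks, the 3 genes with the largest span in each list among those reaching 1 FPKM, and the 3 nearest profiles of each of the 7. List genes past 2-fold, genes named as below 1 FPKM and single cell type markers fall outside it and were chosen after their values were seen. An item that the rule takes is not reported here. Mrtfa and Mrtfb were matched by the symbols Mkl1 and Mkl2. Gene positions come from GENCODE M21 on GRCm38, and promoters from RefSeq on GRCm38.p6. Alternatives were pseudocounts, filters, fold limits and group scalings. Analyses used Python 3.11.15 with pandas 2.3.3, NumPy 2.4.6 and matplotlib 3.10.9.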

Additional observations from a re-analysis of the deposited data

Results flagged for a closer look

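For Cavin2, Cavin4 and Dnm1 the ratio to DMSO passed 2-fold with opposite signs in the groups labelled Ago2+/+ and Ago2-/-. They were found among the 7 genes and the 12 other caveolar genes. The share of all loci with such opposite signs was not computed. The difference was not tested because each group has 1 pooled value. Under tunicamycin Cavin2 was at -5.91 on the log2 scale in Ago2+/+ and 6.13 in Ago2-/-, a difference of 12.0. Under tunicamycin Cavin4 was at 4.55 and -1.29, a difference of -5.84, and under thapsigargin at 3.59 and -1.76, a difference of -5.35. The Ago2+/+ ratios of Cavin4 rest on 0.447 FPKM in Ago2+/+ DMSO. They passed the filter only through the group in which Cavin4 was high. Under tunicamycin Dnm1 was at -1.52 and 1.14, a difference of 2.66. The Ago2-/- DMSO group is the denominator of every Ago2-/- value here, and it lies in the close pair with Ago2+/+ tunicamycin.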

How the results depend on the processing

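No paired analysis was possible because the table holds 1 pooled value per group, and for the same reason no replicate could be left out. Of 114 recomputed spans, counts, median ratios and orders of the 7 genes, 101 stayed near the value given and 13 moved. With a pseudocount of 1 FPKM the span of Cavin2 was 5.69. With a limit of 1.5-fold the number of the 7 genes past it was 4 for Ago2+/+ tunicamycin and 1 for Ago2+/+ thapsigargin, 2 for Ago2-/- tunicamycin and 2 for Ago2-/- thapsigargin, each over DMSO, and 2 under tunicamycin and 1 under thapsigargin for Ago2-/- over Ago2+/+. With 4-fold it was 1 for Ago2+/+ tunicamycin over DMSO and 1 for Ago2-/- over Ago2+/+ under DMSO. The shares of all loci past 1.5-fold and 4-fold were not computed, so these counts have no background beside them. Dividing by the group median or upper quartile gave 2 for Ago2-/- thapsigargin over DMSO, since Cavin3 lay at 0.99. Dividing by the reference genes left 4 genes with the same highest group and 4 with the same lowest. Of 287 values of the other lists, 238 stayed and 49 moved. The lack of replicate values, the unknown depth and the label conflicts of 4 libraries limit every value.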

Other observations

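Receptors and enzymes described in caveolae were examined as a list of 16 genes, of which 13 reached 1 FPKM, 8 of them with a span under 1 on the log2 scale, as had 57.4% of all loci at that level. Cd36, Nos3 and Ephb1 stayed below 1 FPKM. Pdgfrb, a receptor for platelet-derived growth factor, was at 0.540 FPKM (Ago2+/+) and 7.84 FPKM (Ago2-/-) with DMSO, 9.13 and 17.9 with tunicamycin, and 13.9 and 0.799 with thapsigargin. Its 2 low groups were pair C and its 2 highest pair B, and Cavin2 was high in both pairs. Pdgfra, its relative, was at 0.488 and 0.903 FPKM in pair A and between 2.62 and 8.72 elsewhere. Egfr was at 15.5 and 14.6 FPKM in pair B and between 1.41 and 5.18 elsewhere.

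The 8 reference genes all reached 1 FPKM, and 5 spanned under 1 on that scale. Ppia ranged from 332 to 794 FPKM and Gapdh from 233 to 496 FPKM. Of 5 macrophage markers 1 reached 1 FPKM, Cd68, with Adgre1 listed at 0 in all groups.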
